A study of Mus musculus with 10 samples.

Results

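Reads of 8 genes of the actin cytoskeleton were examined in P19 cells, a mouse embryonal carcinoma line, after knockdown of Larp1. The genes were Actb, Actg1, Cfl1, Pfn1, Tmsb4x, Tmsb10, Myl6 and Tagln2, chosen by name from the 13272 genes with reads that passed the filters. They gave 19341 of 2042110 kept alignments, or 0.947%. Wild-type P19 cells received a pool of scrambled siRNAs (siCtl) or a single siRNA against Larp1 (siLarp1). The 24 h groups had 1 transfection and comprised 3 siCtl and 3 siLarp1 libraries. The 48 h groups were transfected again at 24 h and comprised 2 siCtl and 2 siLarp1 libraries. Poly(A) RNA was captured on oligo-dT beads and sequenced as native molecules on nanopores, so that each read gives a transcript and an estimate of its poly(A) tail in nucleotides (nt). Libraries carry the numbers 19, 21 and 22 at 24 h and 24 and 25 at 48 h in both treatments. Per the study's methods, biological replicates were barcoded and pooled. The siCtl and siLarp1 libraries of 24 h were in separate pools, and an effect of the pool at that time cannot be told apart from one of the siRNA, whereas the 48 h libraries shared 1 pool. The methods name 2 independent multiplexed libraries per condition at 24 h, and how the 3 library numbers relate to these is not clear from them.

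Actin monomers (G-actin) assemble into filaments (F-actin) that give cells their shape, move them and drive cytokinesis. Actb and Actg1 encode the cytoplasmic actins, beta and gamma. Cofilin (Cfl1) severs and depolymerizes filaments, profilin (Pfn1) loads monomers with ATP and delivers them to growing ends, and the beta-thymosins (Tmsb4x, Tmsb10) hold monomers in reserve. Myl6 encodes the essential light chain of non-muscle and smooth muscle myosin II, the motor that pulls on filaments, and Tagln2 encodes transgelin-2, a calponin-family protein that binds and bundles them. LARP1 binds the cap and the adjacent pyrimidines of mRNAs with a 5′-terminal oligopyrimidine (TOP) motif, which encode ribosomal proteins and translation factors, and also contacts poly(A) tails and the poly(A)-binding protein. Cytoskeletal mRNAs such as Actb are often used as non-TOP references.

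The siRNA target was measured by few reads. Larp1 had 22 to 36 reads in each siCtl library at 24 h, which were 75.9, 84.2 and 85.0 RPM (reads scaled to 1000000 kept reads of a library), and 3 to 6 reads in each siLarp1 library, which were 33.4, 44.9 and 19.1 RPM. At 48 h it stood at 169 and 123 RPM with siCtl and at 18.5 and 24.9 RPM with siLarp1, and the treatments did not overlap at either time. Kept alignments per library ranged from 112720 to 423398, and the siLarp1 libraries of 24 h were all shallower than the siCtl libraries of 24 h. All 10 listed markers of embryonal carcinoma cells had reads, with a summed level of 3375 to 4652 RPM, and of 13 listed markers of other cell types 9 had reads, with 213 to 412 RPM in sum and none for Sox17, Col3a1, Myog and Tnnt2. As in any bulk sample, fewer cells of a type and less RNA per cell cannot be told apart.

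Levels in RPM were compared between genes without division by length, since 1 read stands for 1 molecule. Actg1 was the most abundant member, with 2948 ± 141 RPM (SD over the 10 libraries), and ranked 80 by reads among all genes. Pfn1 with 1909 ± 289 RPM and Cfl1 with 1887 ± 191 RPM came next and were in that order in only 6 of 10 libraries. Tmsb10 followed with 1432 ± 228 RPM and Myl6 with 539 ± 71.9 RPM. Actb, often the reference gene of such experiments, had 373 ± 93.8 RPM and lay above Tmsb4x, with 311 ± 54.5 RPM, in 6 of 10 libraries. Tagln2 was lowest with 108 ± 13.7 RPM, so that its values rest on 221 reads in all, against 6003 for Actg1. The order Actg1 above Pfn1, Cfl1 above Tmsb10, Tmsb10 above Myl6 and Tmsb4x above Tagln2 held in 10 of 10 libraries. Acta2 and Actc1, the smooth muscle and cardiac actins, gave 9 and 4 reads, and Acta1 and Actg2 none.

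**Figure D1:**
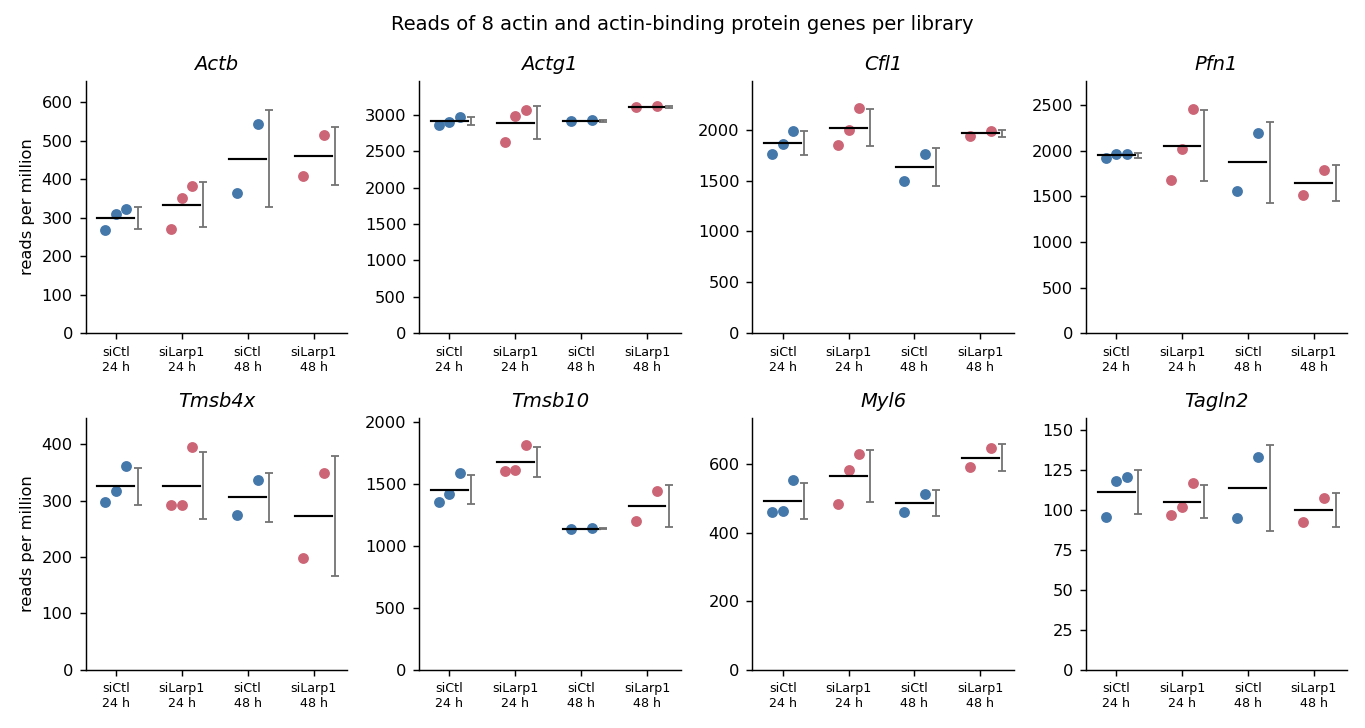
Level in RPM of the 8 genes in each of the 10 libraries, by treatment and time point. Points are libraries (siCtl blue, siLarp1 red), horizontal lines are group means and grey bars SDs. Actg1 lies between 2632 and 3116 RPM throughout, and the siCtl and siLarp1 points of most genes overlap at 24 h.

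Actb had on average the longest tails of the members, a mean of its 10 library medians of 128 ± 11.98 nt, and lay above Pfn1, the next, in 10 of 10 libraries. It was not the longest in 3 of them: Tagln2 lay above it in both siCtl libraries of 48 h, and Actg1 and Tmsb4x in siLarp1 library 25. Its median over all reads, 128 nt, was at percentile 95.9 of the 2612 genes with at least 100 reads. Pfn1 (111 ± 5.74 nt), Myl6 (108 ± 3.66 nt), Tmsb4x (108 ± 9.12 nt), Tmsb10 (107 ± 6.14 nt), Tagln2 (106 ± 17.0 nt) and Actg1 (105 ± 4.53 nt) were close together, and neighbours in this order kept it in 4 to 8 of 10 libraries. Cfl1 had the shortest tails, 98.8 ± 4.28 nt, below those of Actg1 in 10 of 10 libraries and at percentile 37.9. For comparison, the medians of all 2612 genes had a median of 103.5 nt with quartiles of 96.7 and 112 nt, and those of ribosomal protein genes a median of 95.85 nt.

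**Figure D2:**
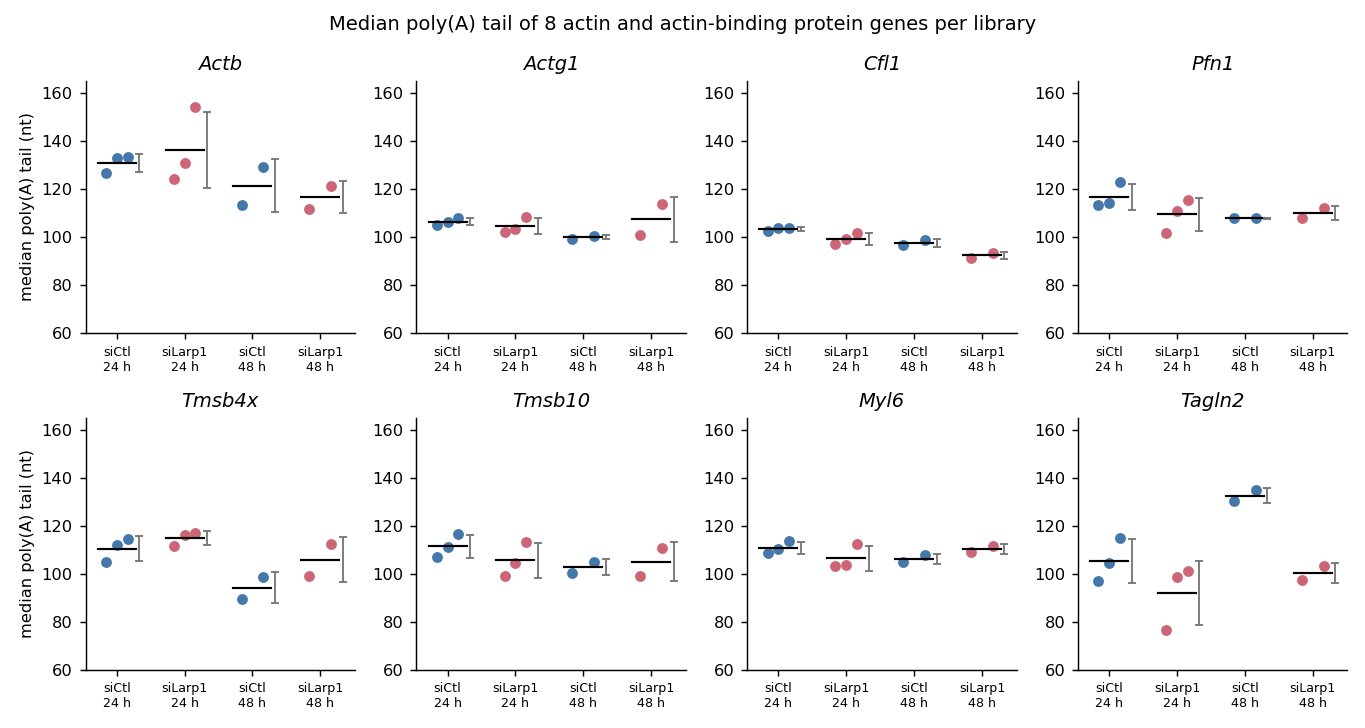
Median poly(A) tail length in nt of the 8 genes in each library, by treatment and time point. Points are libraries, horizontal lines are group means and grey bars SDs. The axis starts at 60 nt. Actb lies highest in nearly every group, from 112 to 154 nt, and the Tagln2 points spread widest, from 76.6 to 134.8 nt.

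Beta-actin and gamma-actin are nearly the same protein. No read of either gene was also aligned to another member. However, only 8 of 722 Actb reads and 16 of 6002 Actg1 reads had more than 1 alignment. The absence of shared alignments therefore cannot show how well the genes were told apart. A mapping quality under 10 was found for 50.9% of the Actg1 reads and 3.32% of the Actb reads. By this score the transcript of many Actg1 reads is uncertain. Reads were aligned to transcripts, and the score does not separate other transcripts of the same gene from other genes. The reads of Actb fell on ENSMUST00000100497.10 in 98.1% of cases, a transcript of 6 exons and 1920 nt at chr5:142903115-142906754 on the minus strand (build GRCm38). The reads of Actg1 fell on ENSMUST00000071555.12 in 92.3%, a transcript of 6 exons and 1952 nt at chr11:120345690-120348542 on the minus strand. The 30 bases that end at the commonest alignment end of each gene lie in the 3′ UTR. For Actb this end was 17 bases short of the annotated end. The windows therefore mark only roughly where the tail begins. They are given on the transcript strand as in GENCODE M21, whose coordinates for these transcripts match the deposited ones, with the polyadenylation hexamer AATAAA in capitals and with the corresponding window of Cfl1.
Actb, chr5:142903132-142903161, minus strand: cactgacttgagaccAATAAAagtgcacac
Actg1, chr11:120345690-120345719, minus strand: gtaaagaAATAAAagtgctgcagtaactga
Cfl1, chr19:5494002-5494031, plus strand: caaaaaaacAATAAAaaggctaattaacaa
This hexamer, searched on the sense strand, was in the windows of 7 of the 8 members, Tagln2 being the exception, and in those of 68.1% of 2182 genes with at least 100 reads on their main transcript. A further 14.5% held ATTAAA only. Only these 30 bases were searched. The Tagln2 window begins with ataaaa, and a hexamer cut by its edge would be missed.

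Actb had 311, 267 and 321 RPM in the siCtl libraries and 350.4, 269 and 382 RPM in the siLarp1 libraries at 24 h. At 48 h it had 364 and 543 RPM with siCtl and 407 and 514 RPM with siLarp1. The treatments overlapped at both times, and the 48 h libraries of 1 treatment differed more from each other than the treatments did. Its level over both time points differed by a log2 fold change of 0.08 between siLarp1 and siCtl, with a 95% confidence interval of -0.18 to 0.35 and an adjusted p of 0.943 (limma voom, Benjamini-Hochberg over all genes). 
The median tail of Actb was 133, 133 and 127 nt with siCtl at 24 h and 154, 124 and 131 nt with siLarp1. At 48 h it was 129 and 114 nt with siCtl and 121 and 112 nt with siLarp1. These groups overlapped too, and the estimate over both times was 2.80 nt (95% interval -8.16 to 13.8 nt, limma adjusted p = 0.921). The siLarp1 library with 154 nt held only 42 Actb reads. Very short tails were rare: 5 of 722 Actb reads had a tail under 30 nt, a share of 0.693% with an exact Clopper-Pearson interval of 0.225 to 1.61%. All such intervals cover counting error only. The 3 siLarp1 libraries of 24 h held 0 of 138 (exact interval 0 to 2.64%).

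The genes with tails most like those of Actb were named by the mean absolute difference of their library medians over the 10 libraries, among the 278 genes with at least 1000 reads. They were Hnrnpk, an RNA-binding protein, with a difference of 8.12 nt and a mean of 126 nt, Cox6c with 8.99 nt and 119.6 nt, and Ndufa4 with 9.44 nt and 119 nt. The last pair encodes subunits associated with cytochrome c oxidase. Each of these differences was smaller than the SD of Actb over the libraries.

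The position of the alignments on Actb differed from the other members. Only 14.0% of its reads began in the first 25% of the transcript, against 68.9% for Actg1, 72.4% for Tagln2, 91.3 to 97.9% for the other 5 members, and a median of 77.4% over genes. The Actb 3′ UTR holds a run of 29 T at transcript positions 1357 to 1385, past the end of the coding sequence at 1234. Of 708 alignments, 98 ended before this run or in its first part, which is counted here as before it. Their median end was at position 1318, and 91 of these began in the first 25%. The other 610 ended past it, 607 of them within 50 nt of the annotated end. Among these 610, 459 began after the start of the run, 151 spanned it and 8 began in the first 25%. Few alignments thus covered Actb from end to end.

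Reads that ended before the T run also had shorter tails, with a median of 102 nt against 132 nt for those that ended past it. The siCtl libraries of 24 h gave 108, 118 and 90.4 nt before the run and 139, 134 and 137 nt past it. With siLarp1 these were 141, 104 and 103 nt against 155, 132 and 132 nt. The order was the same in 10 of 10 libraries, with a mean difference of 27.6 ± 12.2 nt (SD, n = 10). The split was chosen after its values were seen and is given without a test. Reads ending before the run numbered only 3 to 23 in each library, so that each median before the run rests on few reads. They made up 4.92 to 22.2% of the Actb reads of a library, and their part in the differences between libraries was not tested.

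**Figure D3:**
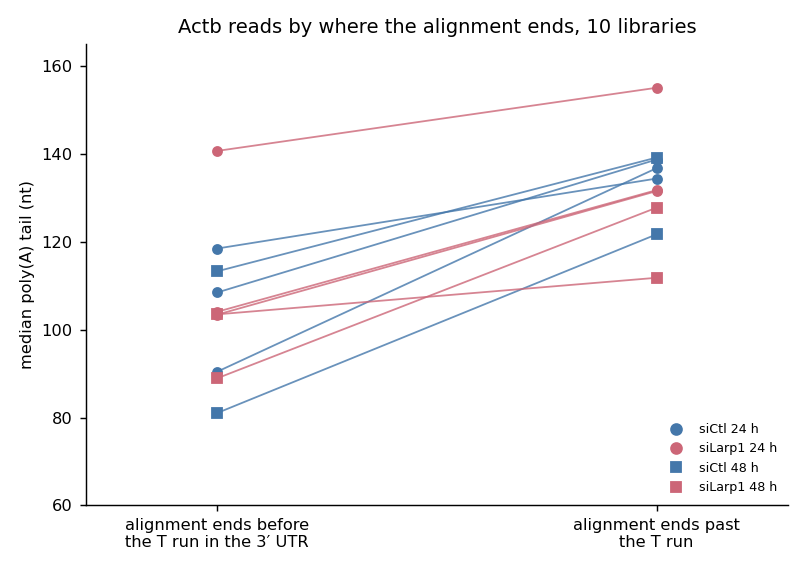
Median poly(A) tail in nt of Actb reads whose alignment ends before or past the run of T in the 3′ UTR, with a line for each of the 10 libraries. Ends in the first part of the run count as before it. All 10 lines go up, by 27.6 nt on average, and the siCtl and siLarp1 lines intermingle.

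Gamma-actin was steadier. Actg1 had 2861, 2975 and 2905 RPM with siCtl and 2978, 2632 and 3069 RPM with siLarp1 at 24 h. The 48 h libraries gave 2928 and 2909.8 RPM with siCtl and 3116 and 3102 RPM with siLarp1. The 48 h groups did not overlap, but they differed by little (log2 fold change 0.09, limma adjusted p = 0.933), and the estimate over both times was 0.02 with an interval of -0.09 to 0.14 (adjusted p = 0.950). This was the narrowest interval of the members.

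The median tail of Actg1 was 105, 108 and 106 nt with siCtl and 102, 103 and 108 nt with siLarp1 at 24 h. After 48 h it was 100.4 and 99.2 nt with siCtl and 101 and 114 nt with siLarp1. The siLarp1 library 25 stood above the others, and the estimate at 48 h was 6.71 nt (limma adjusted p = 0.907). It was 1.102 nt without that library and 14.3 nt without siLarp1 library 24. In that library 30.2% of the Actg1 tails were 30 to 90 nt long, against 39.0% in the other siLarp1 library and 40.3 and 39.6% with siCtl. The 48 h difference in this share, -0.28 in log2 odds, did not pass the test (adjusted p = 0.561). Without siLarp1 library 24 it was -0.62 with an adjusted p of 0.0406, so that the outcome depends on 1 library, and the remaining siLarp1 library is then assumed to vary like the siCtl libraries.

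Actg1, with the most reads, gave the highest number of short tails among the members, while Tagln2 had the highest share, 6 of 221 reads or 2.71% (exact interval 1.00 to 5.82%). Tails under 30 nt were found in 12, 14 and 17 of the Actg1 reads with siCtl and in 10, 6 and 8 with siLarp1 at 24 h. The shares were 1.45, 1.37 and 1.38% against 2.80, 1.70 and 1.66%. These groups did not overlap, but the difference did not pass the test (log2 odds 0.54, adjusted p = 0.582). At 48 h the shares were 1.52 and 2.12% with siCtl and 1.78 and 1.60% with siLarp1, which overlapped. Over all libraries 98 of 6003 Actg1 reads had such tails, or 1.63% (exact interval 1.33 to 1.99%).

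Among the proteins that act on monomers and on filament turnover, Cfl1 had the tails of its siLarp1 libraries below those of its siCtl libraries at both times. Its commonest transcript was ENSMUST00000209469.1, with 93.8% of its reads, of 2354 nt at chr19:5490455-5495201 on the plus strand. However, 99.2% of these alignments ended within 30 nt of position 1184, 1170 nt before the annotated end, at the hexamer shown above, and only 7 of 3593 ended within 50 nt of the annotated end. Position 1184 lies next to the annotated end of the other Cfl1 transcript with reads, ENSMUST00000116560.2 (chr19:5494029, 6.16% of the reads). Nearly all Cfl1 tails were thus measured at this end.

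The median tail of Cfl1 was 104, 102 and 104 nt with siCtl and 96.9, 99.0 and 102 nt with siLarp1 at 24 h. In the 48 h libraries it was 98.8 and 96.5 nt with siCtl and 93.3 and 91.4 nt with siLarp1. All siLarp1 libraries lay below all siCtl libraries of their time. The difference over both times was -4.63 nt, with a two-sided exact permutation p of 0.0167, the smallest that 120 arrangements can give. It is 1 of 32 such tests on the members for each comparison, and the limma estimate of -4.19 nt (95% interval -9.43 to 1.05 nt) had an adjusted p of 0.682.

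The same order was seen in the share of Cfl1 tails of 30 to 90 nt. It was 37.0, 36.1 and 35.4% with siCtl and 41.4, 41.9 and 37.6% with siLarp1 at 24 h. In the 48 h groups it was 39.2 and 43.7% with siCtl and 44.8 and 46.25% with siLarp1. The groups did not overlap at either time, and the mean difference was 4.13 percentage points (exact permutation p = 0.0167, two-sided, again the smallest possible). This share and the median are measures of the same reads, and the model across all genes did not call it. Tails under 30 nt made up 41 of 3829 reads, or 1.07% (exact interval 0.769 to 1.45%), with a log2 odds difference of 0.10 (adjusted p = 0.954).

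Cfl1 reads were 1988, 1760.4 and 1861 RPM with siCtl and 1852, 1996 and 2216 RPM with siLarp1 at 24 h, which overlapped. At 48 h they were 1765 and 1499.7 RPM with siCtl and 1944 and 1991 RPM with siLarp1, which did not. The log2 fold change over both times was 0.18 (95% interval 0.04 to 0.32). Its limma p was 0.0148 before and 0.580 after adjustment over all genes, so that it was not called.

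Pfn1 had the largest spread in RPM between libraries of 1 treatment. Its reads were 1971, 1923 and 1969.8 RPM with siCtl and 1685, 2019 and 2464 RPM with siLarp1 at 24 h. At 48 h they were 2191 and 1561 RPM with siCtl and 1512 and 1792 RPM with siLarp1. The groups overlapped at both times, and the log2 fold change over both was 0.01 (95% interval -0.15 to 0.17, limma adjusted p = 0.987). The reads lay almost entirely, 99.8%, on ENSMUST00000018437.2, a transcript of 861 nt at chr11:70651850-70654644 on the minus strand. A mapping quality under 10 was found for 0.230% of the Pfn1 reads, so that by this score their assignment to a transcript was the clearest after Tagln2.

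The median tail of Pfn1 was 123, 113 and 114 nt with siCtl and 111, 102 and 115.5 nt with siLarp1 at 24 h. At 48 h it was 107.73 and 107.85 nt with siCtl and 112 and 107.96 nt with siLarp1. The 24 h groups overlapped, and the 48 h groups were apart by a fraction of 1 nt. The estimate over both times was -3.76 nt (limma adjusted p = 0.790), and it was -0.74 nt without siLarp1 library 21 and -1.80 nt without siCtl library 19 of 24 h. Pfn1 had the lowest share of short tails of the members, 14 of 3913 reads or 0.358% (exact interval 0.196 to 0.60%), and 23.0% of its tails were over 150 nt.

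The beta-thymosins, with main transcripts of 768 nt (Tmsb4x) and 570 nt (Tmsb10), are shown with their 5′ ends because 1 of them has the members' longest run of pyrimidines there. The 30 bases that end at the commonest alignment start lie in the 5′ UTR, and the longest run of C or T is in capitals. Nanopore reads of native RNA stop short of the cap, so that the first base of the mRNA lies upstream of the commonest start.
Tmsb4x, chrX:167209150-167209179, minus strand: cgccgcgCCCCTCCCgacaatccgcagcgg
Tmsb10, chr6:72958387-72958416, minus strand: gcgggcgccgCTCTTTTgtctcttgctgca
Actb, chr5:142906714-142906743, minus strand: gcggcgcaacgcgcagCCactgtcgagtcg
Cfl1, chr19:5490504-5490533, plus strand: gggccgggagaggccgcgTTCagtcggatc
A run of at least 8 pyrimidines, searched on the sense strand, was found in 1 of the 7 members with a full window, Tmsb4x. It was found in 14.8% of 1487 genes and in 82.5% of 57 ribosomal protein genes, whose median longest run was 11 against 5 for all genes. A match of letters is a description of the window and does not identify a TOP motif.

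Tmsb4x reads lay on ENSMUST00000112172.3 in 99.2% of cases, at chrX:167207093-167209315 on the minus strand. The gene had 297, 317 and 361 RPM with siCtl and 292, 292 and 395 RPM with siLarp1 at 24 h. In the 48 h groups it had 275 and 336 RPM with siCtl and 197 and 348 RPM with siLarp1. The groups overlapped at both times, and the log2 fold change over both was -0.08 (95% interval -0.37 to 0.20, limma adjusted p = 0.943). Its median tail was 112, 115 and 105 nt with siCtl and 116, 117 and 112 nt with siLarp1 at 24 h, which overlapped.

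At 48 h the median tail of Tmsb4x was 89.6 and 98.8 nt with siCtl and 99.2 and 113 nt with siLarp1. The groups did not overlap, but their nearest libraries were less than 1 nt apart, and they rested on 31 to 60 reads in each library. The estimate was 11.1 nt at 48 h (limma adjusted p = 0.930) and 6.60 nt over both times (95% interval -5.01 to 18.2 nt, adjusted p = 0.821). At 48 h it was 3.56 nt without siLarp1 library 25 and 17.2 nt without siCtl library 25. Tails of 30 to 90 nt made up 48.4 and 40% of its reads with siCtl and 34.4 and 26.2% with siLarp1 at 48 h. These groups were also apart, and the difference of -0.83 in log2 odds had an adjusted p of 0.663. Tmsb4x had 9 reads with tails under 30 nt among 649.

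Tmsb10 had 1419, 1589 and 1358 RPM with siCtl and 1602, 1817 and 1617 RPM with siLarp1 at 24 h. After 48 h it had 1136 and 1142 RPM with siCtl and 1203 and 1443 RPM with siLarp1. Its siLarp1 libraries lay above its siCtl libraries at both times, the one member with such an order in reads. The mean difference was 208 RPM (exact permutation p = 0.0167, two-sided, the smallest possible). In limma the log2 fold change over both times was 0.21 (95% interval 0.05 to 0.36), with a p of 0.00951 before and 0.553 after adjustment. In the list of all genes tested this estimate was at percentile 81.4.

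The median tail of Tmsb10 was 111, 117 and 107 nt with siCtl and 98.9, 113 and 105 nt with siLarp1 at 24 h. After 48 h it was 100.3 and 105 nt with siCtl and 99.2 and 111 nt with siLarp1. The groups overlapped, and the estimate was -3.56 nt (limma adjusted p = 0.814). Tails under 30 nt were found in 0 of 332 siCtl reads at 48 h (exact interval 0 to 1.105%). With siLarp1 they were found in 6 of 369 reads, or 1.63% (exact interval 0.599 to 3.51%). The 6 reads were spread evenly, 3 in each siLarp1 library. The model gave a p of 0.00753 before and 0.177 after adjustment, and 0.0610 to 0.997 after adjustment over the alternatives. At 24 h the counts were 4 of 1533 with siCtl and 3 of 689 with siLarp1. Most Tmsb10 alignments, 94.8%, had a mapping quality under 10, and 94.7% lay on ENSMUST00000114050.7, of 570 nt at chr6:72957347-72958488 on the minus strand.

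Myl6 reads lay on ENSMUST00000164181.1 in 87.5% of cases, a transcript of 665 nt at chr10:128490860-128493875 on the minus strand. The gene had 462, 462 and 555 RPM with siCtl and 484, 583 and 630.4 RPM with siLarp1 at 24 h. At 48 h it had 461 and 515 RPM with siCtl and 592 and 647 RPM with siLarp1. The 24 h groups overlapped and the 48 h groups did not. The mean difference over both times was 96.2 RPM (exact permutation p = 0.0333, two-sided). The log2 fold change of 0.24 (95% interval 0.02 to 0.46) was the highest of the members, with a limma p of 0.0301 before and 0.682 after adjustment. The median tail of Myl6 was 103 to 114 nt in all 10 libraries, the narrowest range of the members, and its estimate over both times was -1.46 nt (limma adjusted p = 0.961). Its 12 short tails among 1081 reads included 9 in the siCtl libraries of 24 h.

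All Tagln2 reads, 100%, lay on ENSMUST00000111230.7, of 1586 nt at chr1:172500047-172507380 on the plus strand. The gene had 121, 95.9 and 118 RPM with siCtl and 117, 97.2 and 102 RPM with siLarp1 at 24 h. The 48 h libraries gave 133 and 95.1 RPM with siCtl and 92.5 and 108 RPM with siLarp1. The groups overlapped, and the log2 fold change over both was -0.08, with the widest interval of the members, -0.50 to 0.34 (limma adjusted p = 0.955). Its median tail at 48 h was 130.3 and 134.8 nt with siCtl and 103 and 97.4 nt with siLarp1, which did not overlap. At 24 h it was 104, 96.85 and 115 nt against 98.4, 101 and 76.6 nt. These medians rest on 13 to 17 reads in each library at 48 h, too few for the model, which required 100 reads at a time point. The exact test over both times gave a difference of -20.9 nt with a two-sided p of 0.05. 

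**Figure D4:**
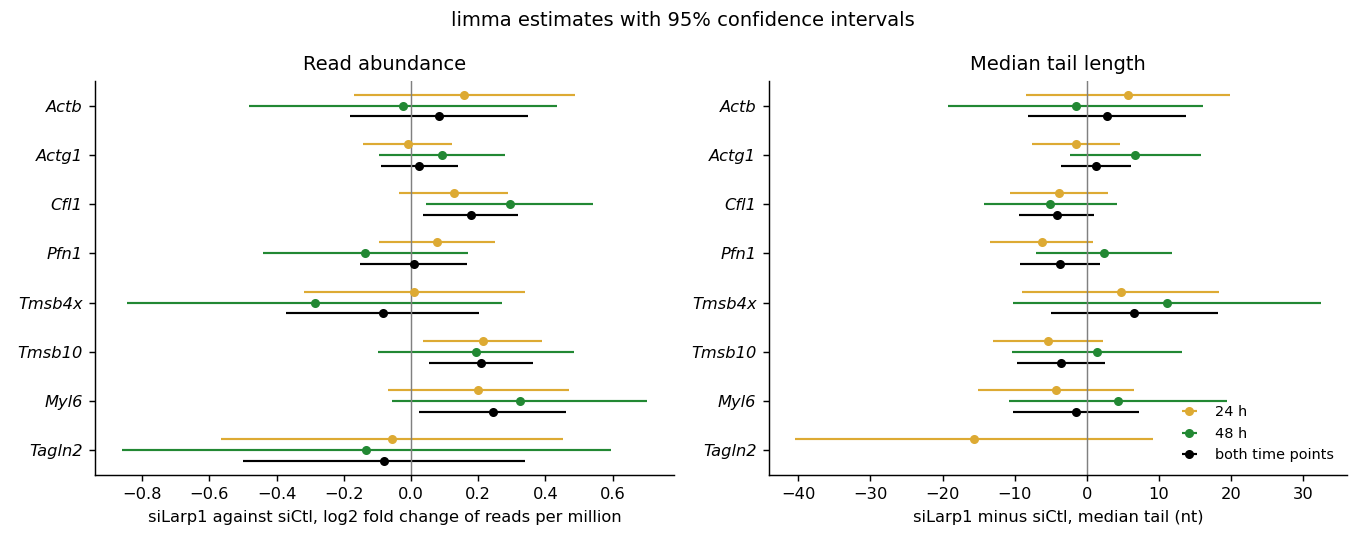
Estimates of siLarp1 against siCtl for the 8 genes at 24 h, 48 h and over both time points, as log2 fold changes of RPM (left) and differences of the median tail in nt (right). Bars are 95% confidence intervals from limma. Those of Cfl1, Tmsb10 and Myl6 in reads over both times lie above 0 before adjustment, and all tail intervals include 0.

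Across the comparisons, none of the members passed the threshold of an adjusted p under 0.05 in any measure. In read abundance limma voom called 0 of 4800 genes (0%) at 24 h, 0 of 2704 (0%) at 48 h and 5 of 2698 (0.185%) over both times. At an unadjusted p under 0.05, 1 of the 8 members was found at 24 h, 1 at 48 h and 3 over both times, and among all genes 168 were higher and 102 lower at 24 h, 70 higher and 65 lower at 48 h, and 90 higher and 84 lower over both times. Limma with a trend in place of voom weights called 0 members, and of all genes 0 at 24 h, 0 at 48 h and 4 over both times. The treatments did not overlap for 1 member at 24 h, Tmsb10, against 10.9% of all genes, and for 4 at 48 h, Actg1, Cfl1, Tmsb10 and Myl6, all higher with siLarp1, against 34.1%. They did not overlap in the same direction at both times for 1, Tmsb10, against 3.19%. The median of the members' log2 fold changes over both times was 0.05, against 0.01 for all genes tested.

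In the median tail length limma called 0 of 1907 genes (0%) at 24 h, 0 of 843 (0%) at 48 h and 0 of 842 (0%) over both times. No member had an unadjusted p under 0.05, whereas among all genes 71 were longer and 40 shorter at 24 h, 38 and 20 at 48 h, and 44 and 30 over both. Without precision weights limma called 0 members. The treatments did not overlap for 1 member at 24 h, Cfl1, against 12.5% of all genes. At 48 h they did not overlap for 5 of the 7 members tested, Cfl1 with shorter tails and Actg1, Pfn1, Tmsb4x and Myl6 with longer ones under siLarp1, against 35.2% of all genes. The order was the same at both times for 1 member, Cfl1, against 3.09%. The estimates of Pfn1 and Myl6 were 2.38 and 4.33 nt there, with limma adjusted p-values of 0.963 and 0.962.

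Tails under 30 nt were the measure with most genes called, and the members had few of them. Their share was 1.02% pooled over all members (198 of 19341 reads, exact interval 0.887 to 1.18%), against 2.49% pooled over the 85 ribosomal protein genes. By single genes with at least 100 reads the median share was 2.84%, and the members ran from 0.358% for Pfn1 to 2.71% for Tagln2. The logistic model called 25 of 1867 genes (1.34%) at 24 h, 6 of 823 (0.729%) at 48 h and 55 of 841 (6.54%) over both times, with 0 members among them. At an unadjusted p under 0.05 it gave 0, 1 and 1 members, Tmsb10 each time. Among all genes it gave 150 higher and 36 lower at 24 h, 104 and 11 at 48 h, and 133 and 11 over both, and limma on the log2 odds also called 0 members. The treatments did not overlap for 1 member at 24 h, Actg1, against 11.3% of all genes, for 1 at 48 h, Tmsb10, against 37.1%, and in the same direction at both times for 0, against 6.06%. The log2 odds differences over both times ran from -1.53 for Actb to 1.79 for Tmsb10, with a median of 0.22 against 0.42 for all genes.

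Pooled over the members, 0.66, 0.87 and 0.90% of the reads had short tails with siCtl and 1.43, 1.00 and 1.11% with siLarp1 at 24 h. At 48 h these shares were 1.44 and 1.17% with siCtl and 1.36 and 1.25% with siLarp1. The treatments were apart at 24 h and overlapped at 48 h. In ribosomal protein genes the pooled share was 1.81 ± 0.110% (SD, n = 3) with siCtl and 3.12 ± 0.122% (n = 3) with siLarp1 at 24 h, and 2.54 ± 0.332% and 4.37 ± 0.239% (n = 2 each) at 48 h. These were apart at both times, as were all genes other than the members. Actg1 holds 98 of the 198 short-tailed member reads, so that the pooled share follows it.

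**Figure D5:**
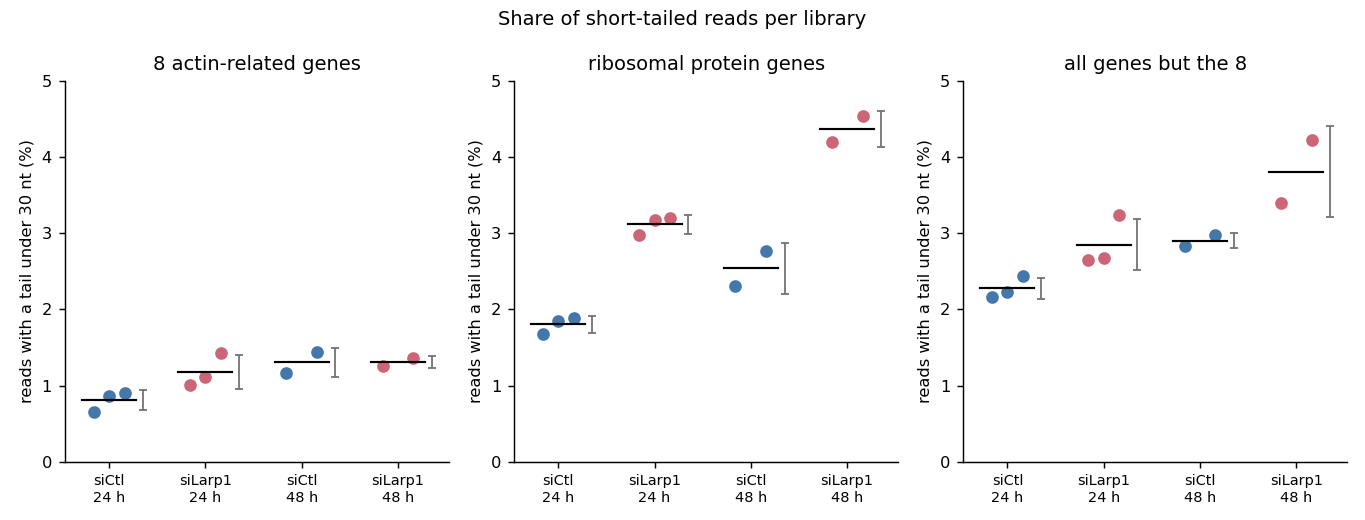
Percent of reads with tails under 30 nt in each library, pooled over the 8 actin genes, the ribosomal protein genes and all genes but the 8, by treatment and time point. Points are libraries, horizontal lines are group means and grey bars SDs. The actin genes lie between 0.66 and 1.44% and overlap at 48 h, and the ribosomal protein genes lie higher with siLarp1 at both times.

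The share of tails of 30 to 90 nt over all libraries ran from 17.2% for Actb to 39.0% for Cfl1, with 37.1% for Actg1 and 29.8 to 34.4% for the others. The model called 6 of 1945 genes (0.308%) at 24 h, 0 of 843 (0%) at 48 h and 10 of 842 (1.19%) over both times, and 0 members. At an unadjusted p under 0.05 it gave 1, 0 and 1 members, Tmsb10 at 24 h and Cfl1 over both. Among all genes it gave 53 higher and 85 lower at 24 h, 13 and 63 at 48 h, and 28 and 59 over both. Limma on the log2 odds also called 0 genes at 48 h. The treatments did not overlap for 1 member at 24 h (13.3% of all genes) and for 3 of 7 at 48 h (38.3%). Cfl1 was the member with the same order at both times, which 3.44% of genes had.

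The siLarp1 effect at 48 h was also compared with that at 24 h. The differences between times ran from -0.30 to 0.17 in log2 fold change of reads, from -7.30 to 8.62 nt in median tail, and from -0.60 to 0.18 in log2 odds of tails of 30 to 90 nt. In log2 odds of tails under 30 nt they ran from -1.82 to -0.68 for Actg1, Cfl1, Pfn1 and Tmsb4x. Actb, Myl6 and Tmsb10 have a group without short tails and hence no finite estimate, and their differences were positive, with an unadjusted p of 0.0470 for Tmsb10. The lowest adjusted p among the members was 0.996 for reads and 0.986 for tails in limma, and 0.704 for tails of 30 to 90 nt and 0.742 for short tails in the logistic model. None of 2698, 842, 842 and 841 genes was called (0% each). At an unadjusted p under 0.05 these tests gave 62 genes with a higher and 51 with a lower value in reads, 19 and 17 in tails, 12 and 46 in tails of 30 to 90 nt and 36 and 18 in short tails. Of the members, 0, 0, 1 and 1 were among them, Tmsb10 in both shares. No difference between times passed the threshold for any member.

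The wider actin cytoskeleton was read from lists of 84 further genes, of which 80 had reads. At 24 h 55 of them could be tested for abundance, 32 with higher and 23 with lower values under siLarp1, and over both times 38, 21 higher and 17 lower. None was called in any measure, and 4 at 24 h, 1 at 48 h and 3 over both had an unadjusted limma p under 0.05, beside 168 higher and 102 lower of all 4800 genes, 70 and 65 of 2704, and 90 and 84 of 2698. Of the relatives of cofilin and its partners, Dstn, which encodes destrin, had 484 reads and a log2 fold change over both times of -0.17 ± 0.16 (SE), and Cap1, a cyclase-associated protein that recycles monomers, had 280 reads and 0.07. Among the genes for the Arp complex that nucleates branches, Arpc2 with 677 reads had -0.07, Arpc4 with 426 reads 0.02 and Actr3 with 378 reads 0.20. Of the subunits of capping protein, Capzb with 376 reads had 0.01. The tropomyosin Tpm3 with 690 reads had 0.08, the calponin Cnn3 with 554 reads -0.13 and Marcksl1, a MARCKS-family protein that binds filaments at the membrane, with 862 reads, 0.14.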

How the data were processed

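RNA was measured in 10 libraries, grouped by the labels. The authors called bases with Guppy, assigned barcodes with Deeplexicon, aligned reads with Minimap2 (minimap2 2.20 in the submitters' processing notes) to mm10 transcripts of a GENCODE annotation, and estimated tails with Nanopolish. The deposited table lists tail length in nt, barcode confidence as a fraction and mapping quality as a score for each alignment, unfiltered. The quality tag PASS was carried by 79.9 to 83.5% of all alignments per library. Alignments to mRNAs with this tag, without those to mitochondrial genes and pseudogenes, were kept and tallied per gene and library. With R 4.3.3 and limma 3.58.1, abundance (at least 30 reads) was tested with voom, and median tails (at least 100 reads, 5 per library) with precision weights. Shares of tails under 30 nt and of 30 to 90 nt were tested with a quasi-binomial logistic model whose dispersions were moderated with limma. P-values were adjusted over all genes by the Benjamini-Hochberg method (threshold 0.05), and the time point was a term when both times were fitted. Single values were compared by two-sided exact permutation tests of library values, 32 for each comparison. Those printed are among the tests with the lowest p over both times, and the others are not given. The smallest p is 0.1 with 3 against 3 libraries, 0.333 with 2 against 2, and 0.0167 over both times. No source ties library numbers to labelled replicates, and p-values measure the spread between these libraries, which may be technical. Intervals of shares, also those for a count of 0, are 95% Clopper-Pearson intervals. Sequences came from GENCODE M21 (GRCm38).

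All 8 members are named. Of the wider lists, called genes and up to 3 genes with most reads per list are named, except for 1 list whose genes are not reported here, and for Actb the 3 genes with the most similar tails. The members and lists were chosen with earlier results of these data known. The scripts were tested on simulated data. Alternatives changed the quality filter, barcode confidence, mapping quality, read minimum, scaling, test, tail limits, the block by library number and single libraries left out.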

Additional observations from a re-analysis of the deposited data

How the results depend on the processing

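Of 333 values of single members under the alternatives other than leaving out a library, 322 kept their direction and their side of the threshold, and 11 changed sign, none of them called. Over both times the log2 fold change of reads was -0.0011 for Actb with all quality tags and -0.0042 when barcode confidence had to be 0.9 or more, and -0.020 for Pfn1 with median-of-ratios scaling and -0.033 with the limma trend. With 1 alignment per read and a mapping quality of at least 10 it was -0.072 for Actg1 and 0.017 for Tmsb4x, and the tail estimate of Actb was -0.69 nt. The log2 odds of tails under 30 nt were -0.71 for Pfn1 and 0.12 for Myl6 under that barcode limit. With a limit of 25 nt they were 0.66 for Actb and -0.38 for Cfl1. Leaving out single libraries gave ranges that crossed 0 for the tails of Actb (-1.87 to 4.93 nt), Actg1 (-0.78 to 2.51 nt) and Myl6 (-2.93 to 0.68 nt), for short tails of Cfl1 (-0.087 to 0.47) and Pfn1 (-0.35 to 0.59), and for reads of Pfn1 (-0.10 to 0.074) and Tmsb4x (-0.21 to 0.047). The number of members called for tails of 30 to 90 nt at 48 h ran from 0 to 1 (Actg1, -0.62 to -0.05 in log2 odds).

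Libraries with the same number in both treatments deviated together weakly (r = 0.019, 0.132 and 0.126 at 24 h and 0.125 at 48 h). Those with different numbers gave r of -0.129 to 0.009 at 24 h and -0.125 at 48 h. With 2 libraries per group the 48 h values can differ only in sign. Whether the same number marks a shared replicate was not tested. With that number as a replicate block, 1 member, Actb, was called for tails under 30 nt at 24 h, on 2 of 318 against 0 of 138 reads, and no other member call changed. That fit called 166 genes higher and 356 lower in place of 25. With a dispersion of at least 1, chosen after seeing the data, it called 0 members and 0 genes. In abundance the block called 13 genes higher and 7 lower at 24 h and 7 and 9 over both times, and a minimum of 1 read called 10 and 5, and 10 and 9. Median-of-ratios scaling called 2 higher and 5 lower in place of 2 and 3 over both times. Limma on log2 odds called 39 genes for short tails at 48 h in place of 6, and 99 over both times in place of 55. Depth limits Tagln2, with 13 to 17 reads per library at 48 h, and all counts of short tails.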

Other observations

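Genes of the wider lists, named by their number of reads, differed in their tails. Some lay outside the quartiles of all genes, 96.7 and 112 nt, and others lay between them. Over all libraries Myl12b, a regulatory light chain of myosin II, had a median tail of 133 nt on 160 reads, and 0 of them had a tail under 30 nt. Its relative Myl12a had 106 nt on 629 reads, with 14 short tails. Myh10, the heavy chain of non-muscle myosin IIB, had 123 nt on 131 reads. Among the genes of the Arp complex Arpc4 had 123 nt, whereas Arpc2 had 98.9 nt with 28 short tails and Actr3 93.5 nt with 11. The capping protein genes Capza1 and Capza2 had 115 and 107 nt on 151 and 196 reads, and Capzb, which encodes the beta subunit, 90.2 nt with 22 short tails among 376 reads. Wdr1, a cofactor of cofilin, had 109.6 nt on 88 reads, none of them short, and was not tested over both times.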
